A study of Rattus norvegicus with 10 samples.

Results

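The CD3 and zeta chains of the T cell receptor complex, the coreceptors CD4 and CD8, the costimulatory receptors CD28 and CD2 and the kinase Lck were measured as transcripts in kidney cortex RNA of Dahl salt-sensitive rats. The set holds 10 named genes, Cd3e, Cd3d, Cd3g, Cd247, Cd4, Cd8a, Cd8b, Cd28, Cd2 and Lck, and each was found as 1 row by exact symbol among the 32545 genes of the deposited table. Wildtype rats of both sexes from the SS/JrHsdMcwi strain, an inbred line that becomes hypertensive on salt, ate 0.4% NaCl until the diets were switched. They carried telemeters from 8 to 9 weeks of age, with 4 days of baseline recording. Then 5 libraries came from rats on 4% NaCl with 2% oxonic acid for 3 weeks, and 5 from rats on 4% NaCl without it, labelled vehicle. Oxonic acid blocks uricase, the enzyme by which rodents break down uric acid, and both groups shared the strain, the salt load and the telemeter. The labels give neither the sex behind a library nor a statement that each library is 1 rat, so p-values measure the spread between these samples, which may in part be technical.

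T cells recognise peptides on MHC molecules through an antigen-binding receptor that cannot signal alone. The CD3 chains gamma, delta and epsilon and the zeta chain, encoded by Cd247, carry the signal inward through tyrosine motifs that the kinase Lck phosphorylates. CD4 and CD8 bind MHC class II and class I beside the receptor and bring Lck with them, while CD28 and CD2 bind ligands on the presenting cell. In Dahl salt-sensitive rats T cells are known to enter the kidney during salt loading. In rats monocytes and macrophages also carry CD4, and natural killer cells carry CD8 alpha and use the zeta chain. At least Cd4, Cd8a and Cd247 are therefore not T cell transcripts alone. Which cells gave the reads of the other members was not tested.

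The values were low. Reads assigned to genes numbered 14.5 to 18.5 M (mega) per library, and the members held 5 to 95 reads per library apart from Cd4 (410 to 880) and Lck (54 to 172). FPKM, fragments per kilobase of gene scaled to library size, is the authors' unit, and it can be compared between genes. The library sizes behind it, estimated at 14.5 to 19.0 M, were not equal to the reads in genes. The cortex label fitted its markers, with the proximal tubule receptor gene Lrp2 at 269 ± 22.5 FPKM under oxonic acid and 243 ± 28.9 FPKM under vehicle and the podocyte gene Nphs1 at 10.4 ± 0.629 and 8.94 ± 1.79 FPKM in those groups (SD, n = 5 each). Vehicle library 4 stood apart with 9.23% of its reads from the mitochondrial genome, against 11.3% to 13.5% in the other 9. The library numbers in the sample descriptions form 3 runs, and the labels call none of them a batch. Here called A, B and C, they take in 3, 1 and 1 of the oxonic acid libraries and 0, 3 and 2 of the vehicle libraries. In whole tissue, fewer cells of a type and less RNA per cell cannot be told apart.

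The CD3 genes lie together on chromosome 8 in the deposited table, for which no genome build is stated. Cd3g (49274960 to 49280901, minus strand) and Cd3d (49282460 to 49287110, plus strand) point away from each other across a gap of 1558 bp, and Cd3e (49297608 to 49308806, minus strand) follows 10497 bp further on. No other gene in the table overlaps any of the 10 members, so none of their reads has an overlapping claimant there. The stretches of 150 bases directly upstream of the RefSeq starts (build GRCr8) are shown for the CD3 genes, for Cd2, which tracked Cd3g most closely, and for Cd28, whose mean was on the other side. They are printed in the direction of the gene, with capitals at TGTGGT, the core letters bound by RUNX factors, and AGGAAG, letters bound by ETS factors, on either strand.
Cd3e, chr8:54211771-54211920, minus strand: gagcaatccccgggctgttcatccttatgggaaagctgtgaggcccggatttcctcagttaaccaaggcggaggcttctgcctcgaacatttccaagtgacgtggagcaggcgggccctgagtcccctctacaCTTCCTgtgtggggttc
Cd3d, chr8:54185369-54185518, plus strand: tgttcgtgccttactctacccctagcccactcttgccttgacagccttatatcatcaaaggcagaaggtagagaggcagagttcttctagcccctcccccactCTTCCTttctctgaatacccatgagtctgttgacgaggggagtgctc
Cd3g, chr8:54183919-54184068, minus strand: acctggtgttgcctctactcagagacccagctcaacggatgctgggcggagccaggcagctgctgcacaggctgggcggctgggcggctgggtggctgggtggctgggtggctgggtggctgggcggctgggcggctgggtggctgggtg
Cd2, chr2:191412660-191412809, minus strand: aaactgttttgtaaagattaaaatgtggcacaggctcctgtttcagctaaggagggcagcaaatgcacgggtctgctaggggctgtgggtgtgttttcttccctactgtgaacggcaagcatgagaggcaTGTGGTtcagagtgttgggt
Cd28, chr9:69660166-69660315, plus strand: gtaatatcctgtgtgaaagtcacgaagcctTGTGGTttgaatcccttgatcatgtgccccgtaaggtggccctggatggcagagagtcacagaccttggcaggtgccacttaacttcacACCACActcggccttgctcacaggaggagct

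RefSeq entries matched 8 of the 10 members, with 2 starts for Lck and so 9 windows in all. TGTGGT stood in 3 of the 9, those of Cd28 (2 places), Cd2 and Lck, and in 8.38% of 33469 rat promoter windows of the same length. AGGAAG stood in 5 of the 9 (Cd3e, Cd3d, Cd247 and both Lck windows) and in 19.3% of all windows. The window of Cd3g held neither and was 72.0% G and C, against a median of 52.7% over all windows. CTTTGA, letters bound by TCF and LEF factors, stood in the windows of Cd3d and Cd247 and in 8.03% of all. TATAAA, the TATA box core, stood in 0 of the 9 and in 8.00% of all. These are matches of letters only.

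Expression of the receptor complex was lower on average under oxonic acid, and Cd28 was higher, but no member passed the threshold. Of the 10 members, 9 had a lower mean under oxonic acid. Of the 9 that reached the minimum mean of 0.5 FPKM and entered the fit across genes, 8 had a log2 difference below 0, against 48.2% of the 14508 genes tested. None passed: 0 of 9 had an adjusted p under 0.05 (limma on log2(FPKM + 0.5), Benjamini-Hochberg over all genes tested), the adjusted p ranging from 0.333 to 0.869, and 0% of all genes passed. At an unadjusted p under 0.05 stood 4 lower members, Cd3e, Cd3g, Cd8a and Lck, against 5.17% of all genes on that side. Cd28 was the 1 higher member at that level, against 4.32% of all genes. With the libraries scaled to equal summed FPKM, the split over all genes at that level was 397 higher and 1123 lower, in place of 627 higher and 750 lower. Separate group ranges, with no overlap, were found in 0 of 10 members, against 1.91% of the genes tested. In 6 members all 5 oxonic acid values lay below the vehicle median, 5 of them among the 9 tested, against 12.0% of all genes. The median log2 difference was -0.36 over the 9 tested members and 0.01 over all genes tested.

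**Figure D1:**
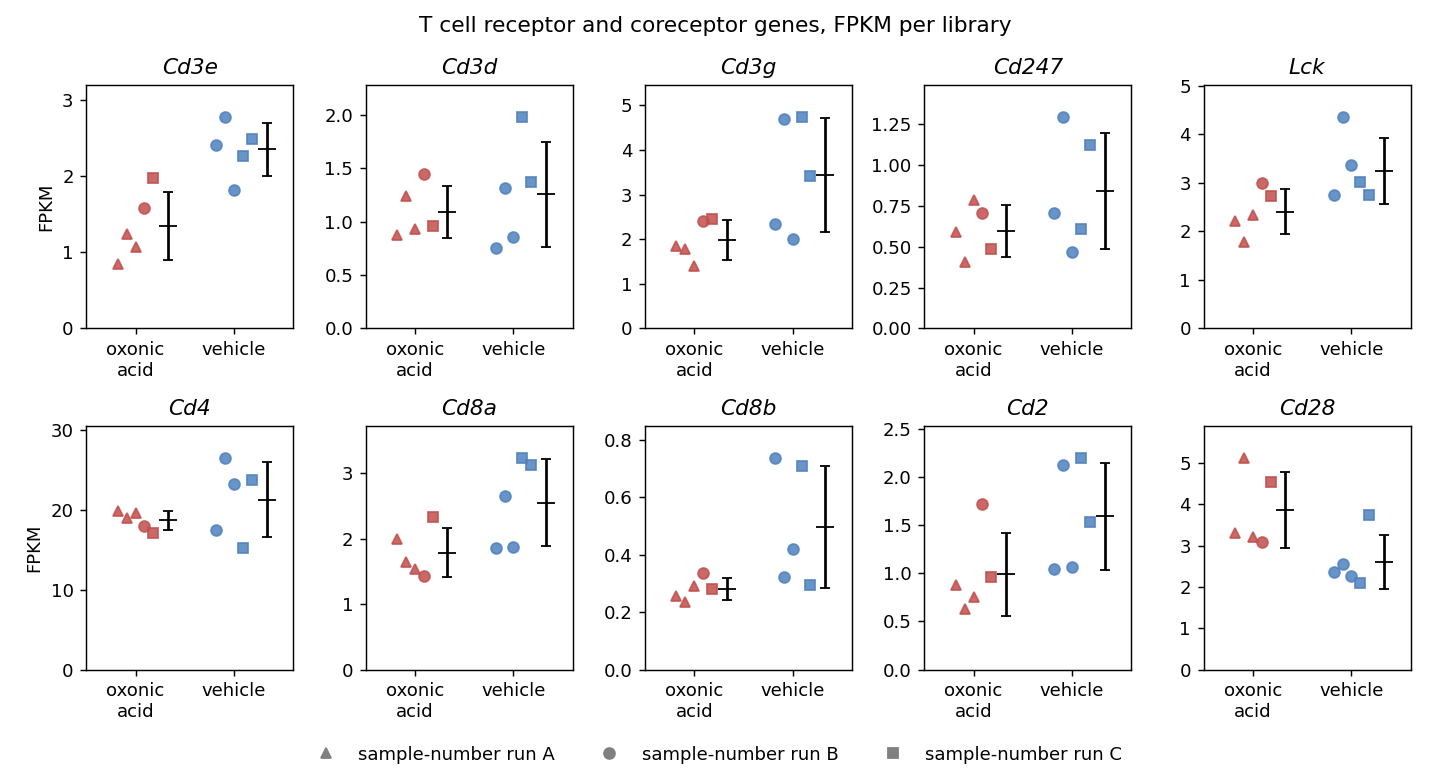
FPKM of each member (vertical axes, each from 0) in the 5 oxonic acid libraries (left, red) and the 5 vehicle libraries (right, blue), with the mean and SD beside the points and the marker shape giving the sample-number run. Cd3e lies at 0.840 to 1.98 FPKM under oxonic acid and 1.81 to 2.78 FPKM under vehicle, while Cd28 lies at 3.10 to 5.12 and 2.09 to 3.74 FPKM in those groups.

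The 3 CD3 genes had log2 differences of -0.65 (Cd3e), -0.63 (Cd3g) and -0.11 (Cd3d), none past the threshold. Cd3e (epsilon), the chain that pairs with both gamma and delta, measured 0.840, 1.24, 1.06, 1.58 and 1.98 FPKM in oxonic acid libraries 1 to 5, against 2.41, 2.78, 1.81, 2.26 and 2.48 FPKM in vehicle libraries 1 to 5. The groups met only where oxonic acid library 5 lay above vehicle library 3, and all 5 oxonic acid values were below the vehicle median. The means were 1.34 ± 0.447 FPKM under oxonic acid and 2.35 ± 0.354 FPKM under vehicle (SD, n = 5 each), a ratio of 0.571. On the log2(FPKM + 0.5) scale, which understates changes of low genes, the difference was -0.65 (SE 0.17, limma adjusted p = 0.333), rank 113 of 14508 by p.

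Cd3g (gamma) measured 1.84, 1.79, 1.39, 2.41 and 2.46 FPKM under oxonic acid, against 2.34, 4.70, 2.00, 4.74 and 3.41 FPKM under vehicle. Vehicle libraries 2, 4 and 5 stood above every oxonic acid library, and vehicle libraries 1 and 3 lay among them. The mean was 1.97 ± 0.452 FPKM under oxonic acid and 3.44 ± 1.28 FPKM under vehicle (SD, n = 5 each) and the log2 difference was -0.63 (SE 0.22, limma adjusted p = 0.419). Blocked on the sample-number runs it was -0.39 (limma adjusted p = 0.796).

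Cd3d (delta), which starts beside Cd3g, showed no such gap. It measured 0.873, 1.24, 0.933, 1.45 and 0.956 FPKM under oxonic acid, against 0.751, 1.32, 0.856, 1.98 and 1.38 FPKM under vehicle. The groups overlapped almost fully, the lowest value of all 10 being a vehicle one. Its log2 difference was -0.11 (SE 0.20, limma adjusted p = 0.869), with a 95% interval of -0.54 to 0.32, and without vehicle library 4, its highest, the difference was 0.02. Blocked on the runs it was -0.04, and without vehicle library 1 it was -0.22. The intervals of Cd3d and Cd3e overlap, and the difference between these genes was not tested. Each library held only 9 to 22 reads of Cd3d.

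Cd247 (zeta), whose chain has more signalling motifs than any CD3 chain, measured 0.590, 0.403, 0.789, 0.708 and 0.485 FPKM under oxonic acid, against 0.705, 1.296, 0.470, 0.610 and 1.13 FPKM under vehicle. Vehicle libraries 2 and 5 were the high ones and the other vehicle libraries lay within the oxonic acid range. The log2 difference was -0.27 (SE 0.20, limma adjusted p = 0.673). Without vehicle library 2 it was -0.15 (limma adjusted p = 0.825), and with voom on the recovered reads it was -0.43.

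Lck, the kinase that starts the receptor signal, measured 2.21, 1.79, 2.33, 2.99 and 2.72 FPKM under oxonic acid, against 2.75, 4.37, 3.36, 3.01 and 2.75 FPKM under vehicle. All oxonic acid values were below the vehicle median, and only oxonic acid library 4 reached into the vehicle range. The mean was 2.41 ± 0.465 FPKM under oxonic acid and 3.25 ± 0.674 FPKM under vehicle (SD, n = 5 each) and the log2 difference was -0.36 (SE 0.14, limma adjusted p = 0.484). Blocking on the sample-number runs gave -0.12 (limma adjusted p = 0.882).

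**Figure D2:**
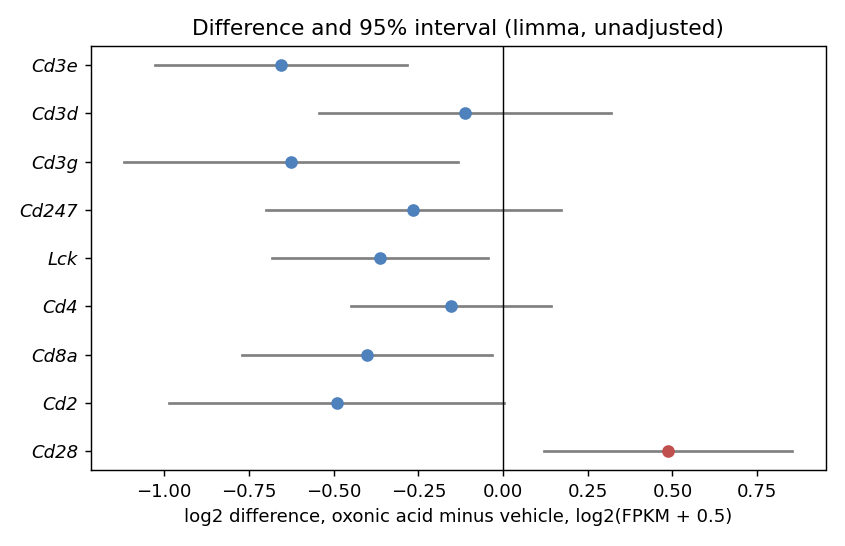
Log2 difference, oxonic acid minus vehicle, on log2(FPKM + 0.5) for the 9 members in the fit across genes (points, blue below 0 and red above), with 95% intervals from limma that are not adjusted for multiple tests. Cd3e lies lowest at -0.65 and Cd28 is the only point above 0, at 0.49 (Cd8b, under the filter, is not drawn).

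Among the coreceptors, Cd4 was by far the most abundant, and its log2 difference was the closest to 0 of the tested members after that of Cd3d. It measured 19.8, 19.0, 19.6, 18.0 and 17.1 FPKM under oxonic acid, against 17.5, 26.5, 23.2, 15.2 and 23.8 FPKM under vehicle. Vehicle libraries 2, 3 and 5 were above every oxonic acid library, vehicle library 4 was below all of them, and the oxonic acid values lay close together. The log2 difference was -0.15 (SE 0.13, limma adjusted p = 0.725). Without vehicle library 4 it was -0.26 (limma adjusted p = 0.518), and without vehicle library 2 it was -0.07 (limma adjusted p = 0.878). Within a library Cd4 exceeded Cd3e by a factor of 8.63 to 23.6 under oxonic acid and 6.76 to 12.8 under vehicle.

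Cd8a, the chain present in both forms of CD8, measured 2.00, 1.64, 1.54, 1.43 and 2.33 FPKM under oxonic acid, against 1.86, 2.66, 1.87, 3.23 and 3.12 FPKM under vehicle. All oxonic acid values were below the vehicle median, but those of libraries 1 and 5 were above vehicle libraries 1 and 3. The log2 difference was -0.40 (SE 0.17, limma adjusted p = 0.494), and -0.20 without vehicle libraries 4 and 5 (limma adjusted p = 0.713).

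Cd8b, which joins Cd8a in the heterodimer of conventional cytotoxic T cells, was the rarest member and lay under the filter, with 5 to 18 reads per library. It measured 0.257, 0.234, 0.292, 0.337 and 0.282 FPKM under oxonic acid, against 0.737, 0.323, 0.420, 0.709 and 0.295 FPKM under vehicle. Vehicle libraries 1 and 4 were the highest, and the groups overlapped through vehicle libraries 2 and 5. The mean was 0.280 ± 0.0386 FPKM under oxonic acid and 0.497 ± 0.212 FPKM under vehicle (SD, n = 5 each; two-sided exact permutation test, p = 0.0397, not adjusted, the smallest possible being 0.00794). In the fit without a filter its log2 difference was -0.33 (limma adjusted p = 0.631). Cd8a exceeded Cd8b by a factor of 4.23 to 8.29 under oxonic acid and 2.53 to 10.6 under vehicle.

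Cd2, an adhesion receptor of T and natural killer cells, measured 0.881, 0.623, 0.755, 1.72 and 0.965 FPKM under oxonic acid, against 1.04, 2.12, 1.07, 2.20 and 1.53 FPKM under vehicle. Oxonic acid library 4 was the single value of its group inside the vehicle range. The log2 difference was -0.49 (SE 0.22, limma adjusted p = 0.524), and -0.64 without that library. Blocked on the runs it was -0.18 (limma adjusted p = 0.905). Its rodent ligand gene Cd48 measured 40.0 ± 3.76 FPKM under oxonic acid and 44.1 ± 4.19 FPKM under vehicle (SD, n = 5 each, limma adjusted p = 0.590).

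Cd28, the main costimulatory receptor, was the exception. It measured 3.30, 5.12, 3.21, 3.10 and 4.54 FPKM under oxonic acid, against 2.35, 2.56, 2.27, 2.09 and 3.74 FPKM under vehicle. All oxonic acid values were above the vehicle median, and only vehicle library 5 reached into their range. The mean was 3.85 ± 0.917 FPKM under oxonic acid and 2.60 ± 0.656 FPKM under vehicle (SD, n = 5 each) and the log2 difference was 0.49 (SE 0.17, limma adjusted p = 0.414). Without vehicle library 5, the only overlapping one, the ranges separate by construction, and the difference was 0.61. Without oxonic acid library 2 the difference was 0.39.

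Set against Cd3e in the same library, Cd28 stood at 1.97 to 4.13 times its FPKM under oxonic acid (median 3.02) and at 0.921 to 1.51 times under vehicle (median 0.978). The ranges of this ratio did not overlap, but the ratio was chosen after both genes' values were seen and was not tested. In whole tissue the cells behind either transcript are not known, so the ratio is not a level per T cell. The CD28 ligand genes were Cd80, under the filter at 0.153 ± 0.0654 FPKM under oxonic acid and 0.176 ± 0.0703 FPKM under vehicle, and Cd86, at 2.85 ± 0.176 and 3.05 ± 0.492 FPKM in those groups (SD, n = 5 each, limma adjusted p of Cd86 0.843). Ctla4, which competes with CD28 for these ligands, was under the filter at 0.203 ± 0.120 FPKM under oxonic acid and 0.152 ± 0.124 FPKM under vehicle (SD, n = 5 each). Icos, a costimulatory receptor related to CD28, measured 1.40 ± 0.341 and 1.42 ± 0.212 FPKM (SD, n = 5 each, limma adjusted p = 0.964).

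**Figure D3:**
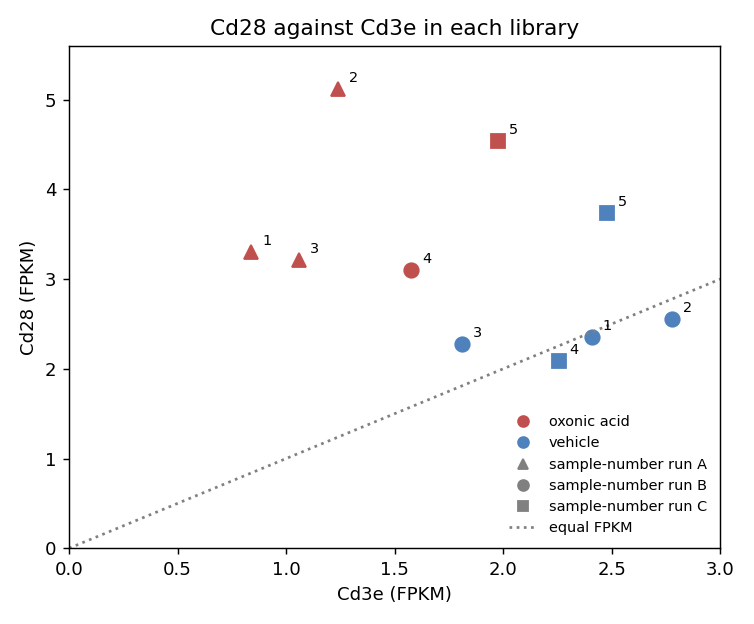
Cd28 (vertical axis, FPKM) against Cd3e (horizontal axis, FPKM) in the 10 libraries, red for oxonic acid and blue for vehicle, with the replicate number beside each point, the marker shape giving the sample-number run and a dotted line at equal FPKM. All 5 oxonic acid libraries lie well above the line (ratios of 1.97 to 4.13) and the vehicle libraries lie near it (0.921 to 1.51).

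Over all 10 libraries the levels ran from Cd4 (20.0 FPKM) through Cd28 (3.23), Lck (2.83), Cd3g (2.71), Cd8a (2.17), Cd3e (1.84), Cd2 (1.29), Cd3d (1.17) and Cd247 (0.718) to Cd8b (0.389 FPKM). Cd4 was above Cd28, and Cd3d above Cd247, in 10 of 10 libraries. The other neighbours in that order changed places in some libraries, and the groups differed in it. By group means Cd28 was next after Cd4 under oxonic acid (3.85 FPKM), while under vehicle Cd3g (3.44 FPKM) and Lck (3.25 FPKM) stood above Cd28 (2.60 FPKM). Cd28 was above Lck in 6 of 10, Lck above Cd3g and Cd8a above Cd3e in 7 of 10, and each remaining gene above the next in 8 of 10.

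The members varied together in part. As a description over the 10 libraries, which share the group difference, Cd3g had a Pearson r of 0.90 with Cd2, 0.83 with Cd8a, 0.80 with Cd3e and 0.70 with Cd3d. With the group means removed these were 0.85, 0.71, 0.60 and 0.77. Cd4 had r of 0.19 to Cd3e, 0.12 to Cd3g and -0.16 to Cd3d, but 0.59 to Cd247 (0.52 with the group means removed) and 0.43 to Lck (0.29). With Cd8b it had r = -0.43, and -0.91 with the group means removed. Cd28 had a negative r with all 9 others, from -0.76 to -0.03, and after the group means were removed its r ran from -0.58 to 0.38 with a median of 0.07. At 5 to 95 reads per library for most members, counting noise weakens such values.

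Among 11803 named genes with a mean of at least 1 FPKM, those most like Cd3e over the 10 libraries were on none of the T cell lists. They were the glucose transporter gene Slc2a2 (r = 0.97, Spearman rho 0.95, r = 0.91 with group means removed), Dnm3 (0.95), the protease inhibitor gene Slpi (0.93), the lectin receptor gene Clec7a (0.92) and Mthfsd (0.92). Slc2a2 measured 49.8 ± 7.39 FPKM under oxonic acid and 65.9 ± 3.84 FPKM under vehicle (SD, n = 5 each). Those most like Cd28 were Fbxo42, Pde4dip, Lzts3, Chd4 (a chromatin remodeller) and Mcf2l, with r of 0.93 to 0.94 and, with group means removed, 0.89 to 0.96. Lzts3 measured 64.1 ± 4.17 FPKM under oxonic acid and 56.5 ± 6.19 FPKM under vehicle (SD, n = 5 each). These are the highest of many r over only 10 libraries, and libraries of one group share their diet and, in part, their run.

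The listed signalling genes downstream of the receptor include broadly expressed ones. For the counts in this and the following lists, 48.2% of all genes tested were lower. Of 29 listed genes found there, 24 passed the filter, of which 17 were lower and 7 higher, 0 passed the threshold, and the median log2 difference was -0.09. Lat, the adaptor phosphorylated after receptor engagement, measured 2.64 ± 0.802 FPKM under oxonic acid and 3.56 ± 0.367 FPKM under vehicle (SD, n = 5 each) and the log2 difference was -0.41 (limma adjusted p = 0.509). The kinase gene Zap70 had a log2 difference of -0.19, the adaptor Lcp2 -0.23 and the phosphatase Ptprc (CD45, on all leukocytes) -0.23, with limma adjusted p of 0.566 to 0.731. Prkcq, a kinase that acts below CD28, lay on the same side as Cd28, at 7.13 ± 1.34 FPKM under oxonic acid and 5.35 ± 1.04 FPKM under vehicle (SD, n = 5 each) and the log2 difference was 0.39 (limma adjusted p = 0.469).

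Of 16 other costimulatory and inhibitory receptors, 6 passed the filter and all 6 were lower, by little (median log2 difference -0.06), with 0 past the threshold. Cd96 and Cd27 had log2 differences of -0.26 and -0.16. Of 13 ligand and MHC genes found, 12 passed the filter and 11 were lower (median -0.16), 0 past the threshold. RT1-Da, an MHC class II gene and so part of the CD4 ligand, measured 111 ± 10.5 FPKM under oxonic acid and 129 ± 13.1 FPKM under vehicle, and RT1-A2, of class I, measured 9.24 ± 0.756 and 12.2 ± 2.67 FPKM in those groups (SD, n = 5 each). Their log2 differences were -0.22 and -0.36 (limma adjusted p = 0.469 and 0.444). Both belong to a family of similar genes whose reads may be split.

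Of 24 regulators and homing receptors of T cell subsets, 17 passed the filter, 14 of them lower and 3 higher, with 0 past the threshold (median -0.12). Ccr7, the receptor that guides naive and memory T cells and dendritic cells to lymph nodes, measured 0.447 ± 0.126 FPKM under oxonic acid and 0.822 ± 0.210 FPKM under vehicle (SD, n = 5 each), and the groups did not overlap (log2 difference -0.48, limma adjusted p = 0.416). Cxcr3, a homing receptor of effector T cells, and Cd44 had log2 differences of -0.42 and -0.59 (limma adjusted p = 0.536 and 0.389). Zbtb7b, which directs thymocytes to the CD4 lineage but measured 27.8 ± 2.09 FPKM under oxonic acid and 23.7 ± 1.17 FPKM under vehicle, was higher without overlap (SD, n = 5 each, limma adjusted p = 0.364). Ccr7 and Zbtb7b were the 2 of 17 tested here whose ranges did not overlap, against 1.91% of all genes tested. Foxp3, the regulatory T cell factor, was under the filter at 0.252 ± 0.0240 FPKM under oxonic acid and 0.187 ± 0.119 FPKM under vehicle (SD, n = 5 each). All 8 effector cytokine genes were under the filter, and Il4, Il21 and Il13, named after their values were seen, were listed at 0 in every library.

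Cytotoxic and natural killer genes, of which 15 were found, had 11 past the filter, 7 lower and 4 higher (median -0.17), with 0 past the threshold. Ctsw, a protease of cytotoxic lymphocytes, measured 1.99 ± 0.796 FPKM under oxonic acid and 3.33 ± 0.930 FPKM under vehicle, and the cystatin gene Cst7 3.20 ± 0.661 and 4.51 ± 1.22 FPKM (SD, n = 5 each). Their log2 differences were -0.64 and -0.43 (limma adjusted p = 0.444 and 0.481). Ccl5 and Gzmm had log2 differences of -0.48 and -0.43 (limma adjusted p = 0.555 and 0.560).

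Markers of other leukocytes lay mostly on the same side as the T cell genes, and no gene of these lists was listed at 0 in every library. Macrophage and monocyte genes had 16 of 17 tested members lower (18 listed, median -0.20, 0 past the threshold), and their summed level ran from 461 to 579 FPKM under oxonic acid and from 537 to 728 FPKM under vehicle. Mrc1 and Tyrobp, 2 of the 17 tested in that list, had ranges that did not overlap, against 1.91% of all genes tested. Their log2 differences were -0.55 and -0.35 (limma adjusted p = 0.333 and 0.364). The dendritic cell list had 5 of 6 tested members lower (8 listed, median -0.13), and its summed level, 15.6 to 20.3 FPKM under oxonic acid and 21.2 to 28.0 FPKM under vehicle, did not overlap between the groups. Most of that gap lay in Clec10a and in Batf3 (2.38 ± 0.765 FPKM under oxonic acid and 3.69 ± 1.46 FPKM under vehicle), while Itgax had a mean of 2.98 FPKM under oxonic acid and 2.78 FPKM under vehicle. Its gene Clec10a measured 5.87 ± 1.24 FPKM under oxonic acid and 9.30 ± 1.68 FPKM under vehicle (SD, n = 5 each, limma adjusted p = 0.333). Genes of all leukocytes were lower in 14 of 16 (17 listed, median -0.16), with summed levels of 208 to 239.7 FPKM under oxonic acid and 227 to 300.2 FPKM under vehicle.

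B and plasma cell genes were scarce. Of 11 that were found, 10 were under the filter, and Fcrla, the 1 tested, had a log2 difference of -0.44 (limma adjusted p = 0.484). Their summed level was 2.34 to 3.10 FPKM under oxonic acid and 2.75 to 3.56 FPKM under vehicle. Kidney cell markers lay on the other side, with 11 of 14 higher (median 0.14), among them Slc4a1 of intercalated cells at 0.44 and Aqp2 of collecting duct at 0.52 (limma adjusted p = 0.414 and 0.489). As a description over 10 libraries, the 50 r between a member and the summed level of 1 of 5 other leukocyte lists had their highest in Lck with the dendritic cell list (0.96) and their lowest in Cd28 with B and plasma cells (-0.89). Cd4 had r = 0.01 with the cytotoxic list. Their part in the T cell values was not tested.

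**Figure D4:**
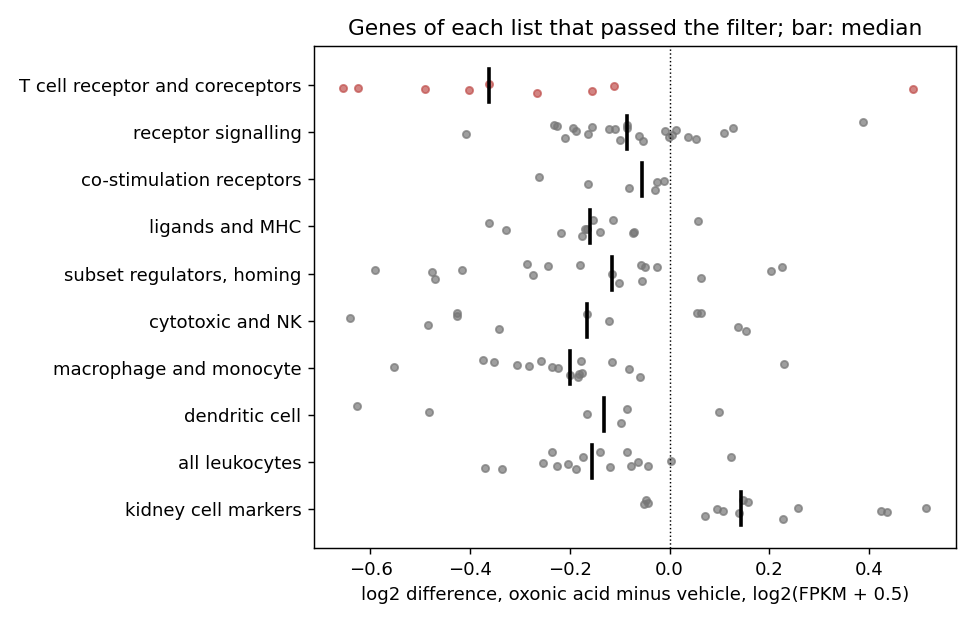
Log2 difference, oxonic acid minus vehicle, on log2(FPKM + 0.5) (horizontal axis) for each gene that passed the filter, by list (rows), with the members in red, other lists in grey, the median as a black bar and a dotted line at 0. The members' median is -0.36, the macrophage list's -0.20 and the kidney cell markers' 0.14.

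Within the oxonic acid group the 3 libraries of run A were below the other 2 for 4 members, Cd3e, Cd3g, Cd2 and Lck. The run A libraries were above the other 2 for Cd4 (19.0 to 19.8 FPKM in run A and 17.1 to 18.0 FPKM in the others). Splits of 3 against 2 libraries arise easily, and their share over all genes was not computed. Cd3e averaged 1.05 FPKM in run A and 1.78 FPKM in the oxonic acid libraries of runs B and C. Run A has no vehicle library, so its part in the difference cannot be told apart from the diet there. Inside run B, with 1 oxonic acid library against 3 vehicle ones, 7 of 10 members were lower, and inside run C, with 1 against 2, 9 of 10 were. Each count rests on 1 oxonic acid library, and the share of all genes lower inside each run was not computed. Cd3e differed by -0.43 and -0.21 on the log2 scale within runs B and C, Cd3g by -0.20 and -0.61, Cd8a by -0.44 and -0.38, Lck by -0.17 and -0.07, and Cd28 by 0.32 and 0.60. Cd3d and Cd2 differed in sign between the runs, at 0.42 and -0.57 and at 0.26 and -0.68. Blocked on run, Cd3e differed by -0.33 and Cd28 by 0.45 (limma adjusted p = 0.764 and 0.752), and Cd8a, at -0.41, was the 1 member left at an unadjusted p under 0.05 (limma adjusted p = 0.733).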

How the data were processed

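RNA was extracted with Trizol, and poly-A selected libraries were made with random priming, per the labels' protocols, which do not settle whether strand was kept. The submitters' processing notes list featureCounts 1.5.0-p3, StringTie 1.3.3b, HISAT2 2.0.5 and fastp, with no roles. The authors deposited FPKM per gene and library. FPKM multiplied by the deposited gene length and by a library size estimated from the low values gave whole reads in 100% of values (within 0.01 of a read), from which reads per gene were computed. No 2 libraries agreed within sampling noise (lowest chi-square per degree of freedom 4.80).

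Columns were matched to samples by the description and grouped by treatment. Genes with a mean of at least 0.5 FPKM (14508 of 32545) were tested on log2(FPKM + 0.5) with limma 3.58.1 (trend) in R 4.3.3, two-sided, with Benjamini-Hochberg adjustment over all of them at 0.05. Cd8b, below that mean, was tested with an exact permutation test (252 arrangements). The procedure was tested on simulated data, which held no difference between the runs and so say nothing about them. FPKM is relative, so abundant transcripts shift the share of others. At 5 to 95 reads counting error is large.

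The members, the other gene lists and the alternatives were chosen with earlier results of these data known. All members are named, with up to 4 genes of smallest p per other list, a few fixed genes (Cd80, Cd86, Cd48, Cd74, Ptprc, Zap70, Lat, Foxp3 and Ctla4), and the 5 genes of highest r with Cd3e and Cd28. Some genes under this rule are not reported here. Promoter windows came from RefSeq. Figures were drawn with matplotlib 3.10.9.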

Additional observations from a re-analysis of the deposited data

Results flagged for a closer look

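Vehicle library 5 stood apart from the other vehicle libraries for Cd28, at 3.74 FPKM against 2.09 to 2.56 FPKM, a gap of 0.715 of the whole range of the group. It was the only such value in the 20 groups looked at (10 members in 2 groups of 5), and chance alone gives about 1 in 20.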

How the results depend on the processing

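Over 21 alternatives no member reached an adjusted p under 0.05, the smallest being 0.247 (limma). The count of all genes past that threshold was 1 with array weights and 0 to 1 when libraries were left out in turn, the 1 appearing without vehicle library 1. With voom on the recovered whole reads it was 0, with 1414 genes at an unadjusted p under 0.05. The number of members at an unadjusted p under 0.05, 5 of 9, was 3 with array weights and 1 when blocked on sample-number run. It was 3 without vehicle libraries 4 and 5 together. With libraries left out in turn it was 3 to 6, the 3 without oxonic acid libraries 2 or 3 or vehicle library 2. Of all 14508 genes, 1377 stood at that level in the main fit, 1659 with array weights and 971 when blocked on run. Without vehicle libraries 4 and 5 together 1487 did, and with libraries left out in turn 1013 to 1539 did. Cd3e and Cd28 kept an unadjusted p under 0.05 in 20 of 21 alternatives (differences of -0.86 to -0.33 and 0.39 to 0.61), Cd3g in 18, Lck in 14 and Cd8a in 13. For Cd8b the exact permutation p lay between 0.0556 and 0.0952 whenever an oxonic acid library was left out. It lay between 0.0159 and 0.0397 whenever a vehicle library was left out, and was 0.0397 with all 10 libraries. The difference of Cd3d reversed to 0.0595 with array weights and 0.12 without vehicle libraries 4 and 5, and with libraries left out in turn it ran from -0.22 to 0.024, the highest without vehicle library 4. Members with separate ranges numbered 1 without vehicle libraries 4 and 5 together (Cd28). With libraries left out in turn they numbered 0 to 3, the 3 being Cd8b, Cd2 and Lck without oxonic acid library 4. A gene's ranges separate by construction once its only overlapping library is left out. The share of all genes with separate ranges was not computed for these settings. The cause of these shifts was not tested. Deviations from the group means had r of -0.0132 to 0.203 between same-numbered libraries and -0.196 to 0.155 between differently numbered ones. The highest was that of the libraries numbered 5. With the replicate block 1445 genes stood at an unadjusted p under 0.05, against 1377. With that block Cd2 came under 0.05 (limma adjusted p = 0.453) and Lck went over it (limma adjusted p = 0.532). Depth limits Cd8b, Cd3d and Cd247 most, at 5 to 42 reads per library.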
